A study of Homo sapiens with 16 samples.

Results

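Imprinted genes, 10 in number, were followed through bulk RNA-seq of HEK293 cells: MEG3, DLK1, H19, IGF2, PEG3, PEG10, NNAT, SNRPN, KCNQ1OT1 and CDKN1C. They are 10 of the 60671 genes in the deposited count table and were found there by symbol. They were chosen by name with results of these same counts in view, and which measured values led to each name is not recorded. Every comparison of the 10 is therefore a description: no p-value is printed for them, and counts of members past the threshold stand beside the share of all genes. Of the 10, 6 had enough reads to pass the filter on low counts (MEG3, IGF2, PEG3, PEG10, KCNQ1OT1 and CDKN1C). DLK1, H19, NNAT and SNRPN did not, and are given as counts per library.

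Imprinted genes are transcribed mainly from the copy inherited from one parent, because a control region was methylated in only one of the germ lines. They lie in clusters in which protein-coding growth regulators alternate with long non-coding RNAs, and the non-coding RNA is often made from the parental copy on which its neighbours are silent. Many act in the fetus and placenta, where paternally expressed members such as IGF2 tend to promote growth and maternally expressed ones such as CDKN1C tend to limit it. Gene counts add up both parental copies, so the levels below say nothing about which copy was read.

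The libraries came from HEK293, an established human line derived from embryonic kidney, in 8 groups of 2. Of these, 6 groups had been transfected with a pcDNA3.0 plasmid holding 1 cloned transcript of the long non-coding RNA gene LINC01016 (T1, T2, CU1, CU2, CU1ENC and CU1ENU). The empty vector group received the plasmid without a transcript, and untransfected parental cells are the last group. Neither a plasmid dose nor a harvest time is listed for parental cells. In comparisons with them, plasmid, transfection reagent and any difference in harvest time cannot be told apart. Per the labels' protocols, 5 µg of plasmid was delivered with Lipofectamine 3000 to cells in 60 mm plates and cells were harvested 48 hours later. Each group holds a replicate 1 and a replicate 2, and nothing in the labels says whether these were separate cultures or what a number marks. The p-values below rest on the spread of these libraries alone, and that spread may be technical. Totals ran from 15040770 to 17255935 counts. Of 11 kidney epithelium markers, 10 averaged at least 1 CPM (counts per 1000000), as did 6 of 7 neuronal, 4 of 8 fibroblast and 2 of 6 pluripotency markers. Of 6 blood and 5 germ cell markers, 0 did.

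The 10 genes differed widely in level. Compared per length, as TPM (transcripts per 1000000) computed from the counts and the exonic lengths in the table, PEG10 led with 118 ± 9.58 TPM in the 14 transfected libraries and 208 ± 7.83 TPM in the 2 parental ones (SD). CDKN1C came next, with 11.1 ± 2.66 TPM in transfected and 20.9 ± 4.37 TPM in parental cells. Its 16 libraries (7.49 to 24.0 TPM) overlapped neither those of PEG10 (97.4 to 214 TPM) nor those of NNAT (0.394 to 1.94 TPM), the next gene. NNAT averaged 1.09 ± 0.452 TPM in transfected cells and IGF2 averaged 0.603 ± 0.333 TPM, and their ranges overlapped. The IGF2 value divides by all 6259 exonic bases, of which 70.7% are shared with another gene on the same strand. It may therefore be too low, and its place after NNAT is not firm. PEG3, MEG3, KCNQ1OT1 and H19 followed at 0.431 ± 0.122, 0.341 ± 0.261, 0.186 ± 0.0539 and 0.159 ± 0.132 TPM in transfected cells, where neighbours again overlapped. DLK1 stood at 0.0719 ± 0.0979 TPM, and SNRPN had 0 assigned counts in every library. All these values divide by every annotated exonic base, 23224 for MEG3 and 91667 for KCNQ1OT1. In CPM, KCNQ1OT1 (4.32 ± 1.22) and MEG3 (2.00 ± 1.52) averaged above PEG3 (1.07 ± 0.297) in transfected libraries, so their order depends on length. The MEG3 mean also pools replicate numbers that lay apart, as given below.

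MEG3 (ENSG00000214548, GRCh38.p13 chromosome 14, 100779410 to 100861031, plus strand, 23224 exonic bases) is a maternally expressed long non-coding RNA. It is known as a growth suppressor and has been found bound to Polycomb repressive complex 2. The sequence at the start of its RefSeq transcript (250 bases before to 50 after the start, GRCh38.p14, chr14:100825858-100826157, plus strand) is shown because MEG3 had the largest fitted difference among the 10 genes. Capitals mark a TGACGTCA and a reverse-strand TGCCGC.
MEG3: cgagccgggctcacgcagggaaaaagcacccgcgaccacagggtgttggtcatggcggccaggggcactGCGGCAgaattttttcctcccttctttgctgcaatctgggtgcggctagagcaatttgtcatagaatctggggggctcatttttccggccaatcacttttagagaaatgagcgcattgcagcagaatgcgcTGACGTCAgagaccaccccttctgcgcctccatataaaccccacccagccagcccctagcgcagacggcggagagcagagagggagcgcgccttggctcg
TGACGTCA is the palindromic cAMP response element, a known element of the human MEG3 promoter, and TGCCGC is the core bound by the imprint-protecting zinc finger protein ZFP57. The search covered both strands for TGACGTCA, TGACGCAA (a related element), TGCCGC and GGGCGG (the GC box). TGACGTCA was in 1.85% of the 35116 RefSeq windows of the same length, TGACGCAA in 0.513%, TGCCGC in 16.7% and GGGCGG in 44.95%. The MEG3 window held neither TGACGCAA nor GGGCGG. A match here is a description of letters and not evidence of binding.

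MEG3 RNA separated the libraries by replicate number in every group. Replicate 2 libraries held 5 to 15 MEG3 counts, while replicate 1 libraries held 46 to 76. In CPM scaled by edgeR's TMM factors, T1 had 0.443 in replicate 2 and 4.38 in replicate 1, and T2 had 0.328 and 3.02 in the same order. CU1 gave 0.696 in replicate 2 and 3.32 in replicate 1, against 0.648 and 2.82 in CU2. These 4 transcripts thus shared one pattern, with replicate 1 several-fold above replicate 2. CU1ENC had 0.628 CPM in replicate 2 and 3.50 CPM in replicate 1, and CU1ENU had 0.784 and 2.91 CPM. Empty vector cells followed with 0.576 CPM in replicate 2 and 3.92 CPM in replicate 1. Parental cells had 0.914 CPM in replicate 2 and 4.14 CPM in replicate 1, so the parental pair showed the same split.

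Over all groups MEG3 averaged 0.627 ± 0.184 CPM in replicate 2 and 3.50 ± 0.59 CPM in replicate 1 (SD, n = 8 libraries each). The highest replicate 2 library lay below the lowest replicate 1 library. The ratio of replicate 2 to replicate 1 ran from 0.101 in T1 (95% exact interval 0.0393 to 0.218) to 0.269 in CU1ENU (0.130 to 0.517), counting error only. In a model that keeps the group means, the log2 difference of replicate 2 over replicate 1 was -2.47 ± 0.19 SE. Among the 19316 genes tested, 347 (1.8%) had all replicate 2 libraries below all replicate 1 libraries, and by the log2 difference MEG3 ranked 15 from the bottom of all genes tested. The split was there in MEG3 in 8 of 8 groups, and 1957 genes (10.1%) were lower in replicate 2 in all 8 groups.

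**Figure D1:**
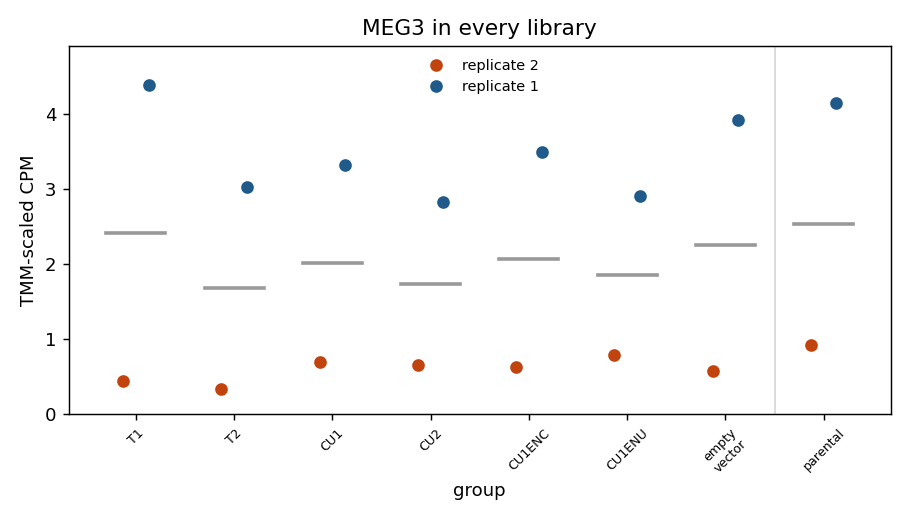
MEG3 in each of the 16 libraries, as TMM-scaled CPM (y axis) by group (x axis); points are single libraries, coloured by replicate number, and grey bars are group means. Replicate 2 libraries sit between 0.328 and 0.914 CPM and replicate 1 libraries between 2.82 and 4.38 CPM in every group, parental cells included.

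Other properties moved with the replicate number. Between 25529 and 26293 genes had a count in replicate 2 libraries, against 26572 to 27461 in replicate 1 libraries, at similar totals. Long non-coding RNAs took 2.78% to 3.50% of counts in replicate 2 and 3.46% to 4.55% in replicate 1. Of 3457 long non-coding RNA genes tested, 366 (10.6%) were lower and 108 (3.12%) higher in replicate 2, while 2885 (19.9%) of 14498 protein-coding genes were lower and 3343 (23.1%) higher. Summed pluripotency markers ran from 113.55 to 129 CPM in replicate 2 and from 99.6 to 109.8 CPM in replicate 1. LIN28B was higher (0.31 ± 0.03) and SOX2 lower (-0.49 ± 0.07) in replicate 2, and NANOG, LIN28A and DPPA4 averaged at most 1 count a library. Among the kidney markers, the transcription factor gene PAX2 was called lower in replicate 2 (-1.03 ± 0.15). LHX1 (0.34 ± 0.05), KRT8 (0.26 ± 0.03), KRT19 (0.26 ± 0.03) and KRT18 (0.18 ± 0.04) were called higher, and the other tested ones were not called. Over all genes 18% were called higher and 17.9% lower. The part of these differences in the MEG3 split was not tested, and what else differed between the numbers cannot be told apart from them.

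The genes whose pattern over the 16 libraries was closest to that of MEG3, by Pearson's r of log2 CPM among 13626 genes, were COL7A1 (0.972), PRKX (0.964), DGKH (0.963), A2M (0.959) and ERVK3-1 (0.959). The 16 points share 2 replicate numbers and 8 groups, and nothing on shared function or control is read from the likeness. A2M, the protease inhibitor alpha-2-macroglobulin, had 1.74 ± 0.546 CPM in replicate 2 and 6.31 ± 1.07 CPM in replicate 1 (SD, n = 8). COL7A1, the collagen of anchoring fibrils, had 25.5 ± 1.48 CPM in replicate 2 and 52.5 ± 4.06 CPM in replicate 1. At the opposite end stood the mitotic kinase gene PLK1 (-0.968), NACC1 (-0.965) and SHKBP1 (-0.962). PLK1 was at 197 ± 5.26 CPM in replicate 2 and 145 ± 4.09 CPM in replicate 1.

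MEG3 had more counts than any of its listed imprinted neighbours on chromosome 14. DLK1 (ENSG00000185559, 100725705 to 100738224, plus strand), the paternally expressed transmembrane relative of Notch ligands that holds back fat cell formation, had 22 counts over all 16 libraries. T2 replicate 2 held 7 of these, and the other 15 libraries held 0 to 4. The maternally expressed non-coding RNAs MEG8 and MEG9 had 32 and 33 counts over the 16 libraries, and both are annotated downstream of MEG3 on the same strand. The paternally expressed retrotransposon-derived gene RTL1 had 19 counts, DIO3, which inactivates thyroid hormone, had 45, and its antisense RNA DIO3OS had 36. MEG3 had 538. Per length in transfected cells, DIO3 (2102 exonic bases) averaged 0.324 ± 0.224 TPM, close to MEG3 (23224) at 0.341 ± 0.261 TPM. The lead of MEG3 over DIO3 therefore depends on length. MEG9 averaged 0.115 TPM there, DIO3OS 0.0927, DLK1 0.0719, RTL1 0.0631 and MEG8 0.0155 TPM. None of these 5 neighbours or DLK1 passed the low-count filter, so whether they followed the MEG3 split could not be fitted. Only 1.34% of MEG3 exonic bases are shared with another gene on its strand.

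PEG10 (ENSG00000242265, chromosome 7, 94656325 to 94669695, plus strand, 6689 exonic bases) is a paternally expressed gene domesticated from a retrotransposon and needed for the placenta in mice. It had by far the most reads of the 10, 56064 in all, and its level set transfected apart from parental cells. The 14 transfected libraries ran from 166 to 214 CPM with a median of 204 CPM, and the 2 parental libraries had 334 CPM in replicate 2 and 362 CPM in replicate 1. Every transfected library lay below both parental libraries, as was the case for 2885 genes (14.9%). The log2 fold change of the mean of the 7 transfected groups over parental cells was -0.80 ± 0.08 SE. Empty vector cells alone had 190 CPM in replicate 2 and 207 CPM in replicate 1, a log2 fold change of -0.81 ± 0.11 from parental cells. Within one replicate number the fold of transfected over parental was 0.567 in replicate 2 and 0.581 in replicate 1. PEG10 was also lower in replicate 2 than in replicate 1 in 8 of 8 groups, as were 10.1% of tested genes. The log2 difference was small, at -0.15 ± 0.03.

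The neighbours of PEG10 did not share one direction. SGCE, a sarcoglycan gene transcribed from the shared start region on the opposite strand and likewise paternally expressed, had 49.1 to 54.2 CPM in transfected libraries against 55.1 and 57.1 CPM in parental ones. Its log2 fold change was -0.14 ± 0.06 and did not pass in edgeR's quasi-likelihood test (adjusted p = 0.0800), and it passed with the replicate number in the model (adjusted p = 0.0347). PPP1R9A, which encodes the actin-binding protein neurabin, fell (-0.36 ± 0.13, edgeR adjusted p = 0.0479), a call lost without either parental library and without some transfected ones. TFPI2, a protease inhibitor gene farther away, rose by 1.29 ± 0.10 (edgeR adjusted p = 3.66e-06), with 87.7 to 107 CPM in transfected libraries against 35.0 and 43.8 CPM in parental ones. PEG10 shares 3.27% of its exonic bases with SGCE on the other strand, and counting used strand.

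Chromosome 11 holds 4 of the 10 genes in neighbouring imprinted domains. CDKN1C (ENSG00000129757, 2883213 to 2885775, minus strand) encodes p57, a maternally expressed inhibitor of cyclin-dependent kinases. Transfected replicate 2 libraries ran from 4.77 to 6.83 CPM with a median of 5.40 CPM, and transfected replicate 1 libraries from 7.44 to 9.01 CPM with a median of 8.42 CPM. Parental cells had 10.8 CPM in replicate 2 and 15.04 CPM in replicate 1. Each parental library was thus above all 14 transfected ones, as for 14.9% of tested genes. Replicate 2 was the lower of the pair in 8 of 8 groups, as for 10.1% of tested genes. The log2 fold change of transfected over parental cells was -0.89 ± 0.26, and that of replicate 2 over replicate 1 was -0.59 ± 0.09. In counts, empty vector cells had 88 in replicate 2 and 134 in replicate 1, against 178 and 254 in parental cells in the same order.

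KCNQ1OT1 (ENSG00000269821, 2608328 to 2699994, minus strand) is the paternally expressed non-coding RNA that runs antisense through KCNQ1 and silences CDKN1C on the same chromosome copy. It is annotated as 1 exon of 91667 bases. Transfected replicate 2 libraries had 2.72 to 4.14 CPM and transfected replicate 1 libraries 4.37 to 6.499 CPM, against 4.63 and 8.35 CPM in parental replicates 2 and 1. The parental library was the highest of its number in both cases, but parental replicate 2 lay inside the range of transfected replicate 1 libraries. Its log2 fold change of transfected over parental cells was -0.60 ± 0.30 without and -0.59 ± 0.16 with the replicate number in the model. In the model of group means it was -0.13 without parental replicate 1 and -0.97 without parental replicate 2. These 2 values set transfected libraries of both numbers against 1 parental library. Within a number the fold of transfected over parental was 0.711 in replicate 2 and 0.640 in replicate 1. Replicate 2 was lower than replicate 1 in 8 of 8 groups (-0.72 ± 0.11), as for 10.1% of tested genes. KCNQ1OT1 and CDKN1C, which are read from opposite parental copies, were thus both at negative log2 values in each of these comparisons. KCNQ1 itself, on the other strand, encodes a potassium channel and was lower in replicate 2 (-0.41 ± 0.10, edgeR adjusted p = 0.00155).

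IGF2 (ENSG00000167244, 2129112 to 2141238, minus strand), the paternally expressed fetal growth factor, was low. Transfected replicate 2 libraries held 3 to 14 counts (0.190 to 0.879 CPM) and transfected replicate 1 libraries 12 to 33 counts (0.759 to 1.97 CPM). Parental cells held 30 counts (1.83 CPM) in replicate 2 and 29 counts (1.72 CPM) in replicate 1, so in parental cells the numbers did not differ. The fold of transfected over parental was 0.316 within replicate 2 and 0.775 within replicate 1. Of IGF2 exonic bases, 70.7% are also annotated to ENSG00000284779 on the same strand, which was listed at 0, and the header shows no option for shared reads. The IGF2 count may therefore cover only part of the gene. H19 (ENSG00000130600, 1995176 to 2001470, minus strand), the maternally expressed non-coding RNA that competes with IGF2 for enhancers, had 0 to 5 counts in a library and 32 in all. Neither group nor number could be compared for H19 at this depth.

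Of the other imprinted genes of these chromosome 11 domains, PHLDA2, a maternally expressed gene that limits placental growth, rose where CDKN1C was lower. It had 17.2 to 23.8 CPM in transfected libraries against 8.65 and 10.7 CPM in parental ones (log2 fold change 1.01 ± 0.13, edgeR adjusted p = 9.19e-05). SLC22A18AS, with 76 counts in all, fell (-1.53 ± 0.41, edgeR adjusted p = 0.0122). That call was lost without parental replicate 1 (adjusted p = 0.231), and empty vector alone against parental cells gave -0.15 ± 0.52 (edgeR adjusted p = 0.876). The transporter gene SLC22A18 had a log2 fold change of -0.68 ± 0.29 and OSBPL5, a lipid transfer protein gene, of -0.32 ± 0.13. Both missed the threshold (edgeR adjusted p = 0.0901 and 0.0754) and passed with the replicate number in the model (0.00731 and 0.00156). NAP1L4, a histone chaperone gene, was at -0.07 ± 0.06.

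PEG3 (ENSG00000198300, chromosome 19, 56810077 to 56840728, minus strand), a paternally expressed zinc finger gene, was the 1 fitted member whose value was higher in transfected than in parental cells. It held 9 to 26 counts (0.583 to 1.68 CPM) in transfected libraries and 15 and 8 counts (0.914 and 0.474 CPM) in parental replicates 2 and 1. The ranges overlapped, and the log2 fold change was 0.59 ± 0.36. Parental replicate 1 was the lowest of the 16 libraries, and within replicate 2 the fold was 1.124, against 2.34 within replicate 1. Replicate number made no such split in PEG3, with 1.01 ± 0.306 CPM in replicate 2 and 1.03 ± 0.345 CPM in replicate 1. Of its exonic bases, 12.9% are shared with ZIM2 on the same strand, which had 2 counts in all.

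NNAT (ENSG00000053438, chromosome 20, 37521206 to 37523690, plus strand), a paternally expressed membrane proteolipid gene inside BLCAP, had 2 to 10 counts in transfected libraries and 4 and 11 counts in parental replicates 2 and 1. Per length over all annotated exons, its 1329 bases placed it above IGF2, while its counts stayed too low to fit. The IGF2 length includes the shared bases given above, so this order is not firm. BLCAP around it had 9182 counts in all and did not differ past the threshold between transfected and parental cells (-0.06 ± 0.09, edgeR adjusted p = 0.640).

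SNRPN (ENSG00000128739, chromosome 15, 24823637 to 24978723, plus strand), which encodes a paternally expressed spliceosome protein, had 0 counts in all 16 libraries. Over 256432988 counts this allows up to 0.0117 CPM (3 counts, counting error only), for the exonic bases that were countable. Of its exonic bases, 43.9% are shared with other genes on the same strand, among them SNURF, which is read from the same transcript and also had 0 counts. NDN, a paternally expressed gene of the same region, had 0 counts as well, MAGEL2 had 4, and the long host transcript SNHG14 had 129. UBE3A, the ubiquitin ligase gene whose maternal copy is the active one in neurons, had 25384 counts. The window of the start that SNRPN shares with SNURF (GRCh38.p14, chr15:24954737-24955036, plus strand) is shown as that of the 1 member with 0 counts, with capitals on a TGCCGC on each strand.
SNRPN: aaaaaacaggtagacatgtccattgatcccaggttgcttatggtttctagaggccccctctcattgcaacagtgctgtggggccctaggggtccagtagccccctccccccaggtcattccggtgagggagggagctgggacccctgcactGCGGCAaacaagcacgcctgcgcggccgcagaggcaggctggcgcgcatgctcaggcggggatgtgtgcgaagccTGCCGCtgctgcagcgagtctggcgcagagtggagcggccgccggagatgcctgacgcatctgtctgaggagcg
This window held 0 matches to TGACGTCA, TGACGCAA or GGGCGG, while another of its 4 RefSeq windows held 2 GGGCGG and another held 1 TGACGCAA and 1 TGCCGC. The H19 window held none of the 4 motifs, and the 3 overlapping MEG3 windows each held 1 TGACGTCA and 1 TGCCGC. RefSeq windows were matched for 3 of the 10 genes, MEG3, H19 and SNRPN.

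**Figure D2:**
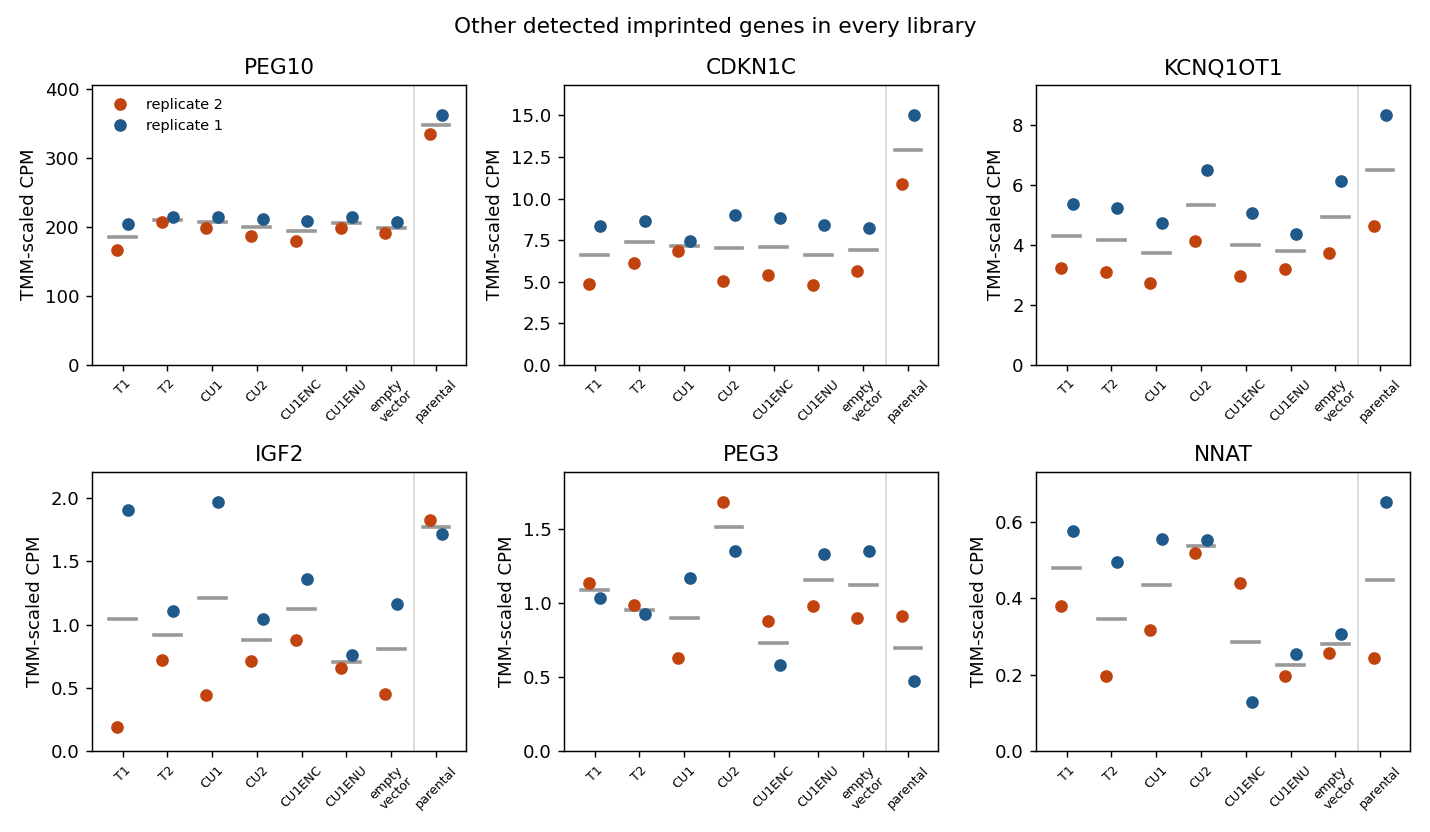
TMM-scaled CPM (y axes, each from 0) of 6 further genes in every library by group (x axis); points are single libraries coloured by replicate number and grey bars are group means. PEG10 and CDKN1C are highest in both parental libraries, at 334 and 362 CPM and at 10.8 and 15.04 CPM, while PEG3 and NNAT overlap between groups.

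Set against parental cells as a whole, the members' fold changes were negative in 5 of the 6 that could be fitted. Of all tested genes, 29.7% were called by edgeR between transfected and parental cells (15.4% higher and 14.3% lower). Of the members 2 were called lower, PEG10 and CDKN1C, and nothing is read from this count because these libraries may have been used to pick the members. With the replicate number in the model 45.7% of genes were called, and the members called lower were 4, with KCNQ1OT1 and IGF2 (-1.01 ± 0.37) added. Between empty vector and parental cells 16% of genes were called (9.41% higher and 6.6% lower), and PEG10 was the 1 member among them. With the replicate number in the model 34.3% were called, and CDKN1C joined at -0.91 ± 0.18. The comparisons share the 2 parental libraries. Without parental replicate 1, transfected libraries of both numbers were set against parental replicate 2 alone. The CDKN1C difference between transfected and parental cells was then -0.65, no longer called. The MEG3 value, -0.35 ± 1.08 over all libraries, was then 1.10. With the replicate number in the model CDKN1C was at -0.90 ± 0.13 over all libraries. Its fold of transfected over parental within a number was 0.509 in replicate 2 and 0.560 in replicate 1. With the replicate number in the model MEG3 was at -0.40 ± 0.26. Within a number its fold of transfected over parental was 0.641 in replicate 2 and 0.823 in replicate 1, with 7 of 7 and 6 of 7 transfected libraries below the parental one.

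Some marker sums moved with the same groups. Summed kidney epithelium markers ran from 1280 to 1591 CPM in transfected and from 898 to 1169 CPM in parental libraries, and neuronal markers from 191 to 241 CPM against 246 to 264 CPM. Single markers did not all follow their sum: TUBB3 (2.36 ± 0.31) and INA (0.28 ± 0.07) were called higher and NEFL (-0.34 ± 0.09) lower among the neuronal ones, and CDH1 (-0.59 ± 0.16) was called lower among the kidney ones, where KRT18, KRT8 and EPCAM were called higher. Fibroblast markers summed to 45.3 to 58.3 CPM in transfected and 60.0 to 61.8 CPM in parental libraries. COL3A1 (-2.19 ± 0.43), PDGFRA (-1.16 ± 0.35) and LUM (-1.02 ± 0.22) were called lower, while COL1A1 (0.22 ± 0.12) and PDGFRB (-0.27 ± 0.74) were not called. Pluripotency sums overlapped, at 99.6 to 129 CPM in transfected and 100 to 114 CPM in parental libraries. There SOX2 was called lower (-0.94 ± 0.21) and LIN28B was not called (0.31 ± 0.15). The neuronal marker STMN2 and the fibroblast marker THY1 averaged at most 1 count a library. The part of these marker differences in the PEG10 and CDKN1C values was not tested. In bulk RNA fewer cells making a transcript and less transcript per cell cannot be told apart.

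**Figure D3:**
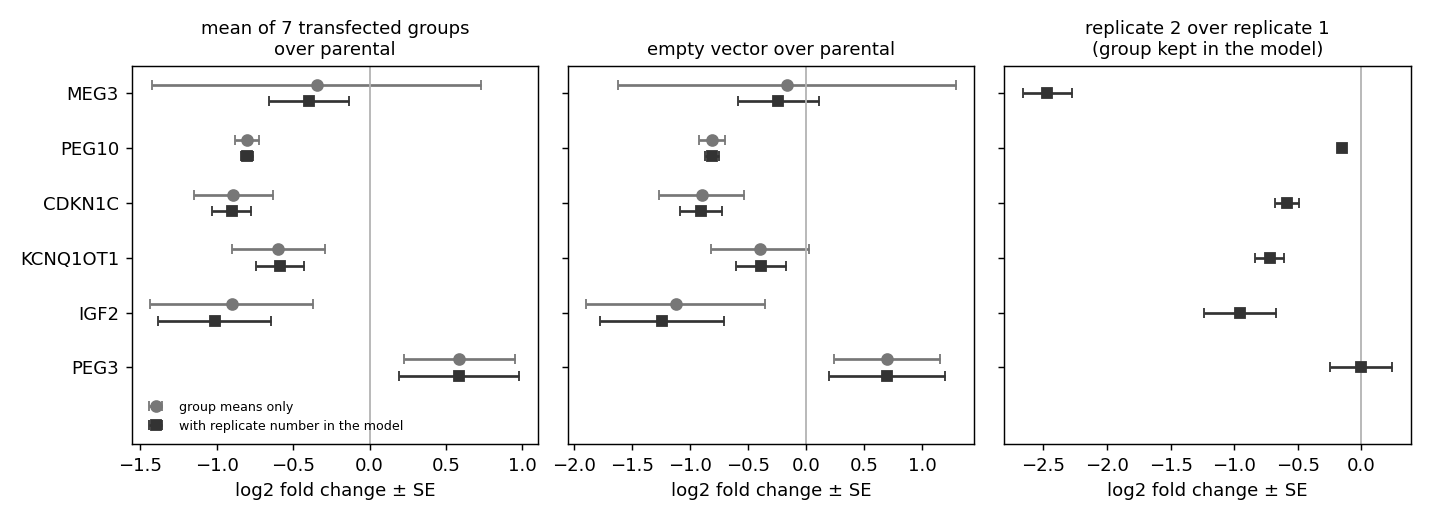
Log2 fold changes ± SE (x axis) of the 6 fitted members (rows) for transfected over parental cells, empty vector over parental cells, and replicate 2 over replicate 1; circles are from the model of group means and squares from the model with the replicate number. Against parental cells MEG3 is at -0.35 ± 1.08 and -0.16 ± 1.45 in the model of group means. With the replicate number it is at -0.40 ± 0.26 and -0.24 ± 0.35, and between the numbers at -2.47. PEG10 is at -0.80 and -0.81 against parental cells and at -0.15 between the numbers.

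Between replicate 2 and replicate 1, 35.9% of all genes were called, 18% higher and 17.9% lower. Of the members 5 were called lower and 0 higher, and as above nothing is read from that count. The 5 spanned a wide range, from MEG3 at -2.47 ± 0.19 through IGF2 at -0.95 ± 0.28 to PEG10 at -0.15 ± 0.03. PEG3 was at -0.01 ± 0.25. No fitted member other than MEG3 had replicate 2 and replicate 1 libraries that were fully apart.

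No member was called between a LINC01016 transcript and empty vector. Of all genes tested, 0.0104% (2 genes) were called against empty vector in each transcript group but CU2, and 0.00518% (1 gene) in CU2. These were LINC01016 itself and, except in CU2, the gene on the strand opposite to it. Of the members 0 were called in any of the 6, by edgeR or by DESeq2, and the F-test over the 6 transcripts called 0 genes in edgeR (98 at an unadjusted p under 0.05) and 2 in DESeq2. With 2 libraries a group, PEG10 was measured most closely, with log2 fold changes over empty vector from -0.10 in T1 to 0.08 in T2, each ± 0.11 SE. CDKN1C ran from -0.07 in CU1ENU to 0.09 in T2 (± 0.38) and KCNQ1OT1 from -0.40 in CU1 to 0.11 in CU2 (± 0.43 and ± 0.42). MEG3 ran from -0.42 ± 1.51 in T2 to 0.11 ± 1.45 in T1. With the replicate number in the model these MEG3 values were -0.45 ± 0.37 and 0.05 ± 0.35. In that model PEG10 ran from -0.11 in T1 to 0.08 in T2 (each ± 0.06). CDKN1C ran there from -0.08 in CU1ENU to 0.09 in T2 (each ± 0.19). KCNQ1OT1 ran there from -0.40 ± 0.23 in CU1 to 0.12 ± 0.22 in CU2. In the model of group means IGF2 (-0.20 ± 0.85 to 0.57 ± 0.80) and PEG3 (-0.61 ± 0.46 to 0.43 ± 0.42) were too low for a closer estimate. The 6 comparisons share the empty vector libraries.

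Of 76 further imprinted genes listed, 72 were in the table and 45 were tested; 8 rose and 8 fell in transfected against parental cells in edgeR, with a median log2 fold change of -0.06 beside -0.00384 over all genes. These counts stand beside 15.4% higher and 14.3% lower over all genes tested. With the replicate number in the model 12 rose and 15 fell, beside 23.1% and 22.5%. In empty vector against parental cells 5 of the 45 were higher and 1 lower, beside 9.41% and 6.6% of all genes. Besides TFPI2 and PHLDA2, those that rose included the Ras-related GTPase gene DIRAS3 (2.39 ± 0.59, adjusted p = 0.00744, 5 counts in parental libraries), the carboxypeptidase gene CPA4 (1.94 ± 0.61, 0.0367) and the zinc finger gene ZNF597 (0.63 ± 0.12, 0.00104). HM13, a signal peptide peptidase gene (0.48 ± 0.11, adjusted p = 0.00516), PLAGL1, a growth-suppressing transcription factor gene (0.31 ± 0.09, 0.0141), and the insulin receptor adaptor gene GRB10 (0.24 ± 0.06, 0.00937) rose less. The largest fall was in NTM, a neural cell adhesion gene, with 0.185 to 0.613 CPM in transfected libraries against 1.16 and 3.43 CPM in parental ones (-2.69 ± 0.39, adjusted p = 0.000218). The synaptic adhesion gene LRRTM1 (-1.45 ± 0.46, 0.0294), ZDBF2 (-0.41 ± 0.12, 0.0234), the scaffold gene MAGI2 (-0.51 ± 0.17, 0.0347), ZC3H12C (-0.28 ± 0.08, 0.0170) and DGCR6L (-0.21 ± 0.07, 0.0260) also fell. Of these 16 calls 5 remained without parental replicate 1 and 8 without parental replicate 2, and TFPI2, PHLDA2 and ZNF597 were the 3 that passed with any library left out. DESeq2 did not call LRRTM1 (adjusted p = 0.0652) or SLC22A18AS (0.0743). Against empty vector, 0 of the 45 were called for any transcript.

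**Figure D4:**
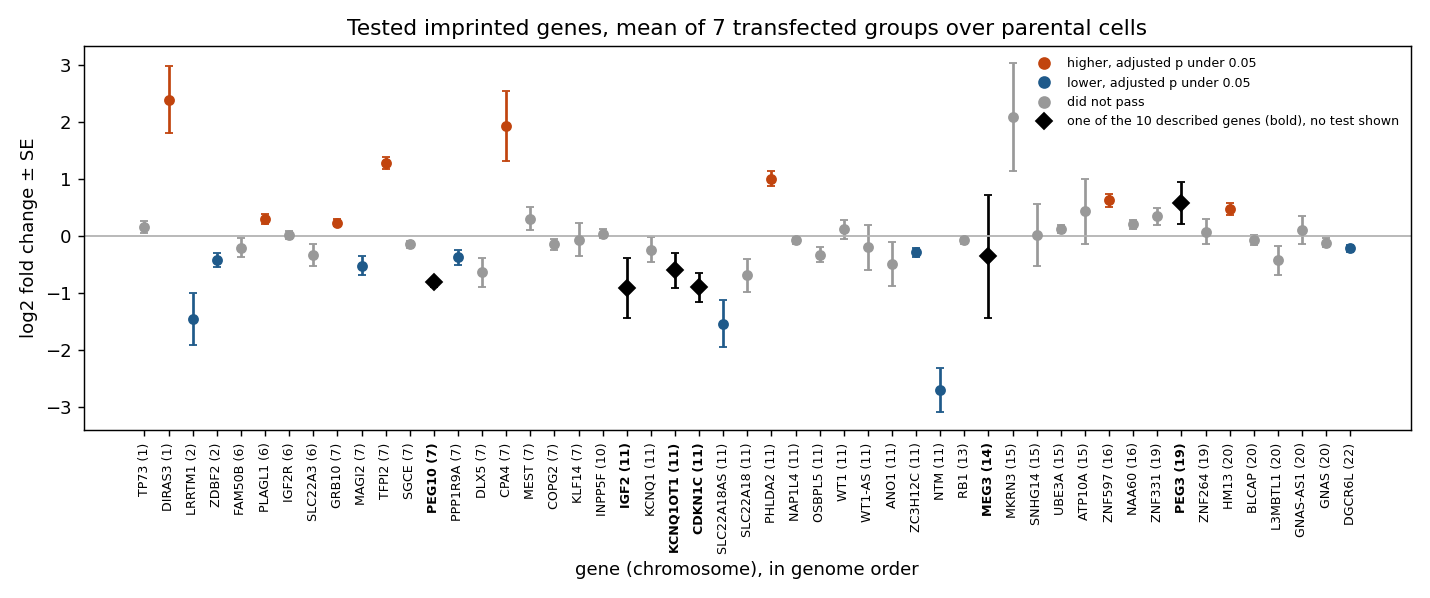
Log2 fold changes ± SE (y axis) of the mean of the 7 transfected groups over parental cells for 45 further imprinted genes (circles) and the 6 fitted members (black diamonds), in genome order (x axis, chromosome in brackets); colours give the edgeR call of the further genes. DIRAS3 at 2.39 and NTM at -2.69 mark the ends, and the chromosome 11 genes hold both PHLDA2 at 1.01 and CDKN1C at -0.89.

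By replicate number, 11 of the 45 further imprinted genes were higher and 10 lower in replicate 2 by edgeR, beside 18% and 17.9% of all genes. The zinc finger gene ZNF264, near PEG3, was lower, with 52.0 to 58.5 CPM in replicate 2 and 69.8 to 79.2 CPM in replicate 1 (-0.46 ± 0.04, adjusted p = 1.30e-11). CPA4 was higher (0.97 ± 0.11, 1.14e-07), as were HM13 (0.22 ± 0.03, 2.88e-07) and GNAS, the stimulatory G protein gene (0.14 ± 0.03, 5.25e-05). ZDBF2 (-0.28 ± 0.03, 8.31e-08) and L3MBTL1, a chromatin reader gene (-0.53 ± 0.09, 1.54e-05), were lower. Calls of 15 of these 21 held with any library left out.

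Of 28 genes that set or keep imprints, 20 were tested, and 4 rose and 0 fell in transfected against parental cells in edgeR (7 and 3 with the replicate number in the model). Over all genes 15.4% were higher and 14.3% lower (23.1% and 22.5% with the number). DAXX, a chaperone of histone H3.3, had 147 to 171 CPM in transfected libraries against 89.98 and 92.2 CPM in parental ones (0.82 ± 0.07, adjusted p = 6.25e-06). DNMT1, which copies DNA methylation at replication, had 337 to 417 CPM against 267 and 268 CPM (0.49 ± 0.07, 0.000165). ARID4B (0.72 ± 0.09, 6.63e-05) and ARID4A (0.42 ± 0.08, 0.00162), which act at an imprinting centre in mice, completed the 4, and ARID4A was not called without parental replicate 2 (adjusted p = 0.0586). Between numbers, 5 were higher and 7 lower in replicate 2, beside 18% and 17.9% of all genes. Among the lower ones was ATRX, which ran from -0.23 to -0.21 with a library left out. The insulator protein gene CTCF was higher (0.27 ± 0.03, edgeR adjusted p = 4.40e-08), while TRIM28, the corepressor recruited by zinc finger proteins to imprinted regions, was lower (-0.19 ± 0.03, 3.26e-06), as were the imprint-binding zinc finger gene ZNF445 (-0.26 ± 0.04, 7.31e-06) and the de novo methyltransferase gene DNMT3A (-0.29 ± 0.05, 1.73e-05).

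Among 30 tested genes known to act with the members or downstream of them, 9 rose and 3 fell in transfected against parental cells (12 and 9 with the replicate number in the model). Over all genes the shares were 15.4% and 14.3% (23.1% and 22.5% with the number). ATF3, a stress-induced transcription factor gene, had 437 to 608 CPM against 78.2 and 100.2 CPM (2.43 ± 0.13, edgeR adjusted p = 1.34e-07). EZH2, the catalytic subunit of Polycomb repressive complex 2, rose by 0.56 ± 0.07 (adjusted p = 6.14e-05) and ATF4 by 0.54 ± 0.07 (8.08e-05), and these 3 of the 12 were called with any library left out. CDK2, the kinase that p57 restrains, fell (-0.31 ± 0.07, edgeR adjusted p = 0.00372), a call lost without parental replicate 1 (adjusted p = 0.0554). In replicate 2 the ubiquitin ligase gene MDM2 (-0.59 ± 0.04, adjusted p = 4.20e-11), the cyclin-dependent kinase inhibitor gene CDKN1A (-0.34 ± 0.03, 7.75e-11) and the stress-induced cytokine gene GDF15 (-0.92 ± 0.17, 7.91e-05) were lower, with MDM2 at 206 to 345 CPM in replicate 2 and 331 to 507 CPM in replicate 1. The cyclin genes CCND1 (0.45 ± 0.03, 4.46e-12) and CCNE1 (0.34 ± 0.04, 4.57e-08) were higher. In all, 7 of the 30 were higher and 8 lower in replicate 2, beside 18% and 17.9% of all genes.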

How the data were processed

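The table deposited by the authors holds raw counts, whole numbers of reads for each gene. Its header, per the file headers, names featureCounts 2.0.1 with strand option 2 and the exons of Ensembl release 101 on GRCh38.p13. HISAT2 and DESeq2 are named without versions, per the submitters' processing notes; settings of the alignment were not given in the sources used here. Of 60671 genes, 60401 were given a symbol by identifier.

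From these counts, edgeR 4.0.16 in R 4.3.3 kept 19316 genes (filterByExpr by group, at least 10 counts and 15 in total), scaled libraries by TMM (0.974 to 1.03) and ran robust quasi-likelihood F-tests over 16 libraries with 8 group means (8 residual degrees of freedom). Calls are Benjamini-Hochberg adjusted p under 0.05 over all tested genes, and the SE is the absolute log2 fold change over the square root of F. Comparisons were the mean of 7 transfected groups and empty vector against parental cells, each transcript against empty vector, an F-test over the transcripts, and replicate 2 against replicate 1 with group kept. A 2 against 2 permutation cannot give a p below 0.333. Scripts were tested on simulated counts.

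Replicates of a group differed beyond sampling noise (chi-square per degree of freedom 6.21 to 17.0). Deviations from the group mean correlated between libraries of one number in 28 of 28 pairs of groups (r 0.162 to 0.441, median 0.248). The numbers were therefore taken to pair libraries, from the data and not from a label. A fit with the number as a block had a common dispersion of 0.00436, against 0.0184 without it.

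The members and gene lists were chosen with earlier results of these data known. Named genes are all members, and up to 8 passing genes of lowest p per list and direction, of which the text names some. Further ones are imprinted genes within 1000000 bases of a member, and the 5 most and 3 least MEG3-like genes (log2 CPM, prior count 2). Gene types came from GENCODE release 29. Alternatives were scaling by RLE or upper quartile, no or a stricter filter (CPM of 1 in 2 libraries), DESeq2 1.42.0, only the groups compared, the replicate block, and each library left out. Folds within 1 replicate number, given as values with no test, were added after the data were seen. Intervals cover counting error only. Of the partner genes, 1 is not reported here.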

Additional observations from a re-analysis of the deposited data

How the results depend on the processing

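Over all tested genes, the replicate block raised the calls to 8826 from 5744 for transfected against parental cells and to 6626 from 3092 for empty vector against parental cells. Members called went to 4 from 2 and to 2 from 1 with the block, and also to 4 and 2 without a low-count filter, and to 2 for empty vector with only the compared groups fitted. Leaving out a library gave 2498 to 6030 and 1365 to 3196 calls. The lowest were without parental replicate 1 (2498, and 3215 without parental replicate 2) and without empty vector replicate 2 (1365, against 1551 without empty vector replicate 1, 1436 without parental replicate 1 and 1535 without parental replicate 2). Members called then ran from 1 to 3 and stayed at 1.

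Against empty vector, calls without a low-count filter were 34 for the transcript mean and 63 for the F-test, and for single transcripts 73 (CU2), 35 (T2), 32 (T1), 17 (CU1) and 7 (CU1ENC). The block gave 1 in T2 and in CU1, upper quartile scaling 1 in CU1, only the compared groups 1 in CU1, CU1ENC and CU1ENU and 2 in CU2, and DESeq2 2 in CU2 and in the F-test and 3 in CU1ENC. Leaving out a library gave 1 to 2 calls (1 to 3 in CU1ENU, 0 to 1 in the F-test) and 0 members.

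Replicate 2 against replicate 1 gave 6079 to 6775 calls and 5 members with a library left out. PEG3, near 0 there at -0.01, was 0.020 without a filter and 0.0066 in DESeq2, and ran from -0.11 to 0.11 with a library left out. MEG3 against parental cells ran from -1.06 to 1.10 for the transfected mean and from -2.12 to 1.28 for empty vector, and KCNQ1OT1 for empty vector from -0.80 to 0.071. The positive values were without parental replicate 1 (1.10, 1.28 and 0.071) and, for MEG3 in empty vector, without empty vector replicate 2 (0.63). The largest transcript value against empty vector in absolute size reached 0.254 for PEG10 and 2.05 for IGF2 without T1 replicate 1, 2.75 for MEG3 without T2 replicate 1, 0.534 for CDKN1C without CU1ENU replicate 1, 0.855 for KCNQ1OT1 without CU1 replicate 1 and 0.939 for PEG3 without CU1ENC replicate 2. Replicate 2 against replicate 1 gave 3478 higher and 3455 lower genes, against 2809 and 3937 under upper quartile scaling and 4056 and 2850 without a filter; transfected against parental cells gave 2975 and 2769, against 2674 and 3285 under upper quartile scaling. The cause of these changes was not tested. Depth limits DLK1, H19, NNAT, SNRPN, IGF2 and PEG3 most, and each group has 2 libraries.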
